A study of Mus musculus with 24 samples.

Results

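Mast cell genes were followed in skin and bone of irradiated and untreated mice. The 8 genes, out of 55471 in the table, were Cma1, Mcpt4, Tpsb2, Tpsab1, Cpa3, Kit, Fcer1a and Hdc. They form a fixed list of names, chosen with earlier results of these data known. The mouse Ensembl identifiers of GENCODE M21 matched 8 of 8. RNA with polyA selection came from female mice 10 weeks old; the title of the study speaks of a sarcoma model in the mouse. In each tissue, 4 libraries were labelled F-PRT, read here as proton radiotherapy at the ultra-high FLASH dose rate, 4 were labelled S-PRT, taken to be proton radiotherapy at the standard rate, and 4 were Untreated. The labels call the 4 libraries of a group biological replicates and give no strain, genotype, dose, time after irradiation or tumour status. Total expected counts (in units of 1e6) ran from 16.42 to 22.09 per skin library and from 10.91 to 17.36 per bone library.

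Mast cells leave the bone marrow as committed precursors and ripen in the tissue, most of them in connective tissue such as the dermis. Stem cell factor, the product of Kitl, keeps them alive through the receptor Kit, and IgE bound to the high-affinity receptor, whose alpha chain is Fcer1a, triggers them to release their granules. The granules hold histamine, made by the decarboxylase Hdc, and proteases: the chymases Cma1 and Mcpt4, the tryptases Tpsb2 and Tpsab1, and carboxypeptidase A3, Cpa3. The proteases mark mature mast cells most closely, while Kit is also found on blood stem and progenitor cells and melanocytes, Fcer1a on basophils, and Hdc in basophils and other myeloid cells of the marrow.

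In bone, both beams were followed by more transcript of the granule proteases Cma1 and Tpsb2 and, relative to the typical gene, less of the histamine-forming enzyme Hdc. Cpa3 and Kit did not pass the test there, and in skin, where the proteases were most abundant, none of the 6 genes tested did. Values are counts per 1e6 counts with TMM scaling within a tissue (CPM), log2 changes carry their standard error (SE), and a gene is called where the Benjamini-Hochberg adjusted p of the edgeR quasi-likelihood test over all genes of the table is under 0.05. TMM scaling sets changes against the typical gene, whose median log2 change in bone was -0.01 after either beam. On the authors' TPM with no further scaling (limma on log2 of TPM plus 0.1, an alternative chosen after seeing the data), changes of all genes shifted upward by a median of 0.72 after F-PRT and 0.65 after S-PRT in bone, and by 0.26 and 0.27 in skin. Bone calls after F-PRT then numbered 11460 higher and 530 lower in place of 2925 and 3236, and after S-PRT 10524 and 537 in place of 2512 and 2868. In skin they numbered 121 and 29 in place of 191 and 264, and 220 and 63 in place of 348 and 479. Cma1 and Tpsb2 were called higher in bone on both scales. Where a gene is said below not to pass, the test is edgeR with TMM scaling unless named. In whole tissue, more cells of a type and more transcript per cell cannot be told apart.

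All 8 genes are protein coding; coordinates are of GRCm38 with GENCODE M21 genes. Cma1 (ENSMUSG00000022225) spans chr14:55941451-55944675 and Mcpt4 (ENSMUSG00000061068) chr14:56059629-56062313, both on the minus strand of the chymase cluster. Tpsab1 (ENSMUSG00000024173) lies at chr17:25343245-25345562 on the minus strand, beside Tpsb2 (ENSMUSG00000033825) at chr17:25366305-25369098 on the plus strand. Cpa3 (ENSMUSG00000001865) spans chr3:20215620-20242181 on the minus strand and overlaps the microRNA gene Mir7007. Kit (ENSMUSG00000005672) spans chr5:75574916-75656722 on the plus strand. Fcer1a (ENSMUSG00000005339) lies at chr1:173221284-173227214 and Hdc (ENSMUSG00000027360) at chr2:126593667-126619299, both on the minus strand. Expected counts of Mcpt4 were fractional in 16.7% of the libraries, so some of its reads were divided among transcripts of more than one gene, while those of the other 7 were whole in all 24, within 0.005 counts.

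The 250 bases before the RefSeq start (GRCm38.p6) are shown for 5 of the 6 members with a window. Across the skin libraries the chymases and Cpa3 moved together, as did Kit, which is not shown. In bone Hdc went the other way from Cma1. Each window is written 5′ to 3′ on the strand of its gene. Cma1 is at chr14:55944676-55944925, Mcpt4 at chr14:56062311-56062560, Cpa3 at chr3:20242182-20242431, Fcer1a at chr1:173227230-173227479 and Hdc at chr2:126618679-126618928. Capitals mark GATAA, a form of the sequence read by GATA factors, or its reverse complement TTATC. In Fcer1a they also mark CACATG, the reverse complement of CATGTG, an E-box that Mitf can bind.
Cma1: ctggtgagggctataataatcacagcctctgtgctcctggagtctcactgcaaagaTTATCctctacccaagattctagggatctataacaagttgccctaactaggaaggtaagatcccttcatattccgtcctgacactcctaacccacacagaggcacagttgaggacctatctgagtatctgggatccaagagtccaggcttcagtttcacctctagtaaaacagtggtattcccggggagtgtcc
Mcpt4: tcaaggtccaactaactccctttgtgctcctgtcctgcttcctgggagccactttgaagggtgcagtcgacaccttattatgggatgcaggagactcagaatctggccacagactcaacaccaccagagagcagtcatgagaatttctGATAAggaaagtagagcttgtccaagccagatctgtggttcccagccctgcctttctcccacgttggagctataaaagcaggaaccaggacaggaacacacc
Cpa3: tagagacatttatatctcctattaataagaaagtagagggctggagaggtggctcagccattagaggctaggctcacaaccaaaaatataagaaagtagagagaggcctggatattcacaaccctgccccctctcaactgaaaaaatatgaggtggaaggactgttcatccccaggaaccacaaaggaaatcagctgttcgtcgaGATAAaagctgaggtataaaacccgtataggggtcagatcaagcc
Fcer1a: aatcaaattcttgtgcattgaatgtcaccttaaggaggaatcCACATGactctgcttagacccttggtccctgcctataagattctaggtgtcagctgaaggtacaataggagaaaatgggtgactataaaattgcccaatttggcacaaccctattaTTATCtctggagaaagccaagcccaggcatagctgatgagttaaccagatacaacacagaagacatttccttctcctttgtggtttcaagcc
Hdc: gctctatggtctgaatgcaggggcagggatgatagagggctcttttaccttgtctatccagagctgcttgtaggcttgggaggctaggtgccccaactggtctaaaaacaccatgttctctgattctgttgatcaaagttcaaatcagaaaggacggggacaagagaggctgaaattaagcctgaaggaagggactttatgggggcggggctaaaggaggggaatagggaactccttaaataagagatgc
GATAA was found on either strand in 4 of the 6 members with a window, against 22.6% of all 32851 RefSeq promoter windows. Its first base stood 194 bases before the start in Cma1, 102 in Mcpt4, 45 in Cpa3 and 92 in Fcer1a. CATGTG was found in 1 of the 6, Fcer1a, 208 bases before the start, against 12.3% of all windows. Neither string of letters lay in the windows of Hdc or Kit. Other forms of a GATA site, such as GATAG, were not looked for in any window. A match describes letters and shows no binding.

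Libraries that differed from the rest of their group are given first. Skin S-PRT replicate 4 held a summed 12.7 CPM of the 8 mast cell genes, against 96.5 to 157 in the other 3 libraries of its group. Its 5 endothelial markers summed to 5.27 CPM against 147 to 158, its 6 fibroblast markers to 288 against 3447 to 4577, and its 5 basal keratinocyte markers to 28910 against 7611 to 9974. Skin Untreated replicate 3 was also low, at 42.2 CPM of mast cell genes against 86.4 to 106 in the other untreated skin libraries, with endothelial markers at 45.7 and fibroblast markers at 790 CPM. Bone Untreated replicate 1 held 779 CPM of 5 mature neutrophil markers, against 3639 to 5566 in the other 3. Skin S-PRT results of the members are given with and without replicate 4. One alternative left out 5 libraries together: skin S-PRT 4, skin Untreated 1, bone F-PRT 2, bone F-PRT 3 and bone Untreated 1.

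Untreated skin and untreated bone differed in which mast cell genes they held. Cma1, Mcpt4 and Tpsb2 were higher in skin, Kit, Fcer1a and Hdc were higher in bone, and Cpa3 did not pass; 32.6% of all genes tested were called higher in skin and 32.6% lower. Mcpt4 was 41.1-fold higher in skin (log2 5.36, SE 0.84, edgeR adjusted p = 8.14e-06), Cma1 30.0-fold (log2 4.91, SE 0.69, adjusted p = 1.77e-06) and Tpsb2 20.6-fold (log2 4.36, SE 0.70, adjusted p = 1.11e-05). Hdc stood in untreated skin at 0.0622 of its bone level (log2 -4.01, SE 0.50, adjusted p = 3.49e-07), Fcer1a at 0.144 (log2 -2.80, SE 0.82, adjusted p = 0.00505) and Kit at 0.272 (log2 -1.88, SE 0.23, adjusted p = 1.77e-07). Cpa3 lay between the 2 sets, with a log2 difference of 0.66 (SE 0.60, 95% interval -0.58 to 1.91). These 6 calls held in each of the 24 fits that left out 1 library. Basophil markers Mcpt8 and Prss34, proteases of basophil granules, had between 0 and 3 counts in every skin library.

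Per transcript length, the order of the 8 genes also differed between the tissues. In untreated skin, in TPM (transcripts per 1e6 transcripts, which allow genes to be compared), Mcpt4 led at 17.9 ± 8.42 (SD, n = 4), followed by Cma1 at 9.24 ± 2.83, Tpsb2 at 4.96 ± 2.41, Cpa3 at 4.12 ± 2.44, Kit at 2.87 ± 0.73 and Hdc at 0.990 ± 0.473. Fcer1a, at 0.153 TPM, and Tpsab1, at 0.110, came last. Tpsb2 and Cpa3 differed by less than 1 SD, as did Cpa3 and Kit by the SD of Cpa3. In untreated bone Hdc led at 15.9 ± 8.94 TPM and Kit followed at 11.5 ± 2.27, with overlapping spreads, ahead of Cpa3 at 2.79 ± 1.37 and Fcer1a at 1.25 ± 0.928. Then came Mcpt4 at 0.440 ± 0.395, Cma1 at 0.323 ± 0.167 and Tpsb2 at 0.248 ± 0.0922 TPM, whose spreads overlapped, and Tpsab1 was lowest at 0.0225 ± 0.045.

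F-PRT against Untreated in bone asked what FLASH irradiation was followed by there. Of the 8 genes, 2 rose, 1 fell, 4 did not pass and 1, Tpsab1, was too low to test. Over all genes, 15.5% of 18848 genes were called higher and 17.2% lower, so the number of calls among the members was near what the whole table showed. Cma1, Mcpt4 and Tpsb2 passed the low-count filter only through the irradiated libraries: 1, 1 and 0 of the 4 untreated libraries reached 10 counts. The members that passed are thus no unbiased sample of the list.

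Cma1, a chymase-family protease of connective tissue mast cells, had 0.759, 0.381, 0.667 and 0.201 CPM in the 4 untreated bone libraries, from 7, 5, 10 and 3 counts. After F-PRT it had 5.23, 3.19, 5.78 and 2.86 CPM, and after S-PRT 3.31, 1.87, 5.55 and 2.09. All 8 irradiated libraries lay above all 4 untreated ones. The change was 8.67-fold after F-PRT (log2 3.12, SE 0.46, edgeR adjusted p = 0.000233) and 6.54-fold after S-PRT (log2 2.71, SE 0.47, adjusted p = 0.000853).

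Tpsb2, the tryptase stored with heparin in the same granules, followed Cma1. Its untreated bone libraries held 0.542, 0.305, 0.534 and 0.201 CPM, from 5, 4, 8 and 3 counts. The F-PRT libraries held 2.88, 2.30, 2.31 and 1.99 CPM and the S-PRT libraries 1.88, 0.691, 3.08 and 1.45. The groups did not overlap, with S-PRT replicate 2 nearest to the untreated range. Tpsb2 was 6.04-fold higher after F-PRT (log2 2.59, SE 0.45, adjusted p = 0.000689) and 4.55-fold higher after S-PRT (log2 2.19, SE 0.45, adjusted p = 0.00285). Over the 12 bone libraries its log2 CPM had a Pearson correlation of 0.973 with that of Cma1, a description over libraries that share their treatment groups.

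Mcpt4, the chymase that was most abundant in skin, did not pass in bone with edgeR on all libraries. It had 2.06, 0.534, 0.133 and 0.469 CPM untreated, 1.35, 1.36, 2.80 and 1.24 after F-PRT, and 0.856, 0.760, 1.87 and 1.201 after S-PRT. Untreated replicate 1, with 19 counts, lay inside the irradiated range, and the other 3 untreated libraries, with 7, 2 and 7 counts, lay below it. The log2 change was 1.21 (SE 0.58, adjusted p = 0.131) after F-PRT and 0.69 (SE 0.60, adjusted p = 0.425) after S-PRT. Without untreated replicate 1 it was 2.17 (adjusted p = 0.00534) and 1.66 (adjusted p = 0.0277), so this library decided the edgeR call. With all libraries it passed under voom quality weights, which weigh libraries by their spread (2.23, adjusted p = 0.00288, and 1.86, adjusted p = 0.0177), and on the TPM scale (2.00, adjusted p = 0.0021, and 1.43, adjusted p = 0.016). Tpsab1, the other tryptase, had 0 to 3 counts in every bone library, and 3 counts equal 0.171 to 0.325 CPM here, so no fold was computed.

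**Figure D1:**
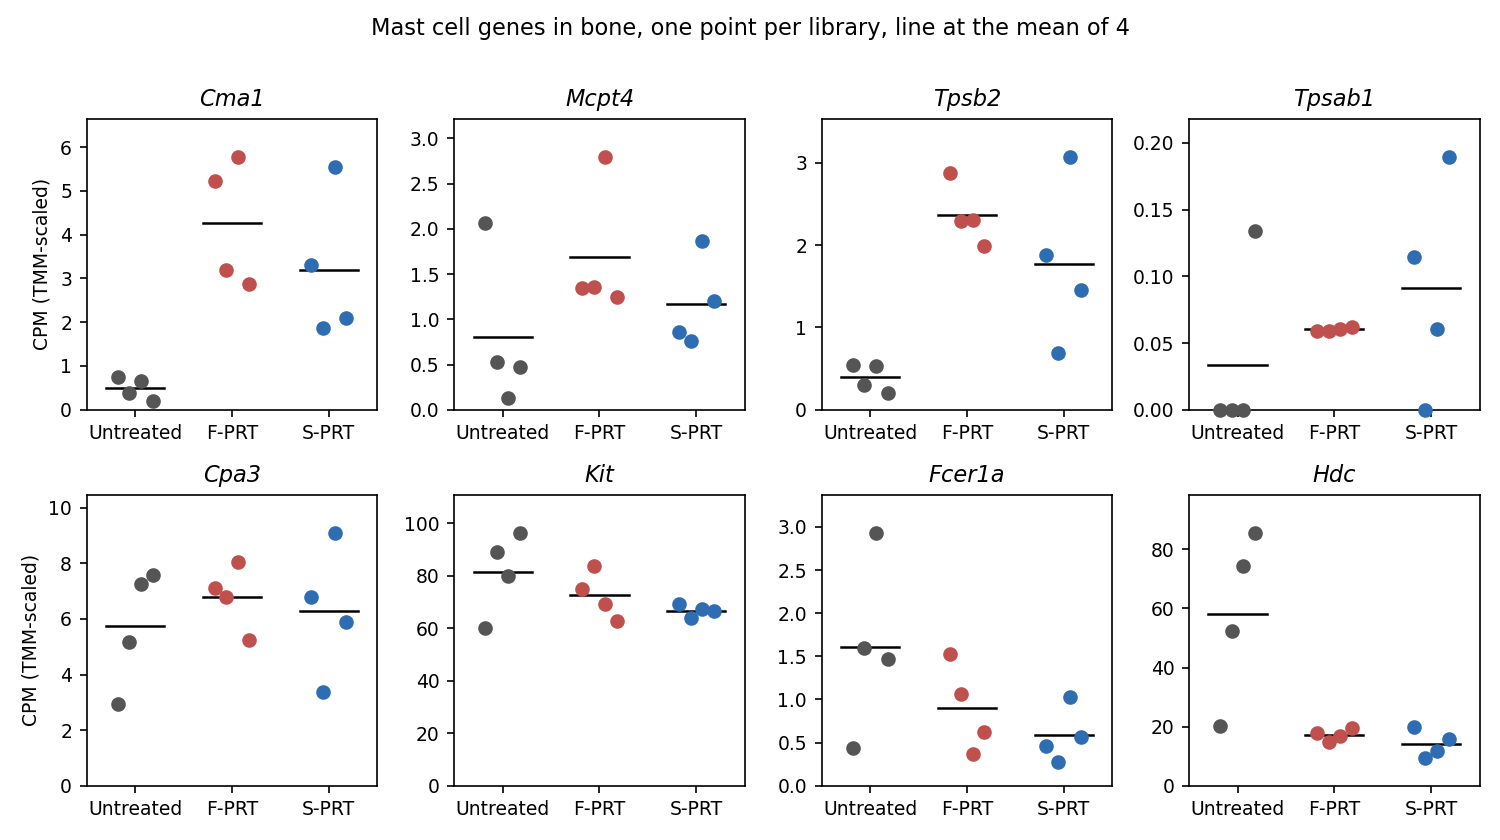
Level of each mast cell gene in bone, in TMM-scaled CPM on linear axes from 0, by treatment; a point is a library and a line the mean of 4. Cma1 and Tpsb2 were higher in all 8 irradiated libraries than in the untreated ones, Hdc was lower in all 8 on this scale, and Cpa3 and Kit overlapped.

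Cpa3, the carboxypeptidase that works beside the chymases and is already made by mast cell precursors and basophils, did not pass in bone after either beam. Its levels were 2.93, 5.18, 7.27 and 7.57 CPM untreated, 7.12, 6.78, 8.03 and 5.23 after F-PRT, and 6.79, 3.39, 9.11 and 5.88 after S-PRT. The 3 groups overlapped. The log2 change was 0.22 after F-PRT (95% interval -0.43 to 0.88, adjusted p = 0.607) and 0.12 after S-PRT (-0.54 to 0.77, adjusted p = 0.808). In TPM the F-PRT value was 1.03 and passed (adjusted p = 0.0271), and the S-PRT value was 0.77 (adjusted p = 0.0869).

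Kit had the highest TPM of the 8 in irradiated bone. Untreated libraries held 60.1, 89.0, 79.9 and 96.4 CPM, F-PRT libraries 74.9, 83.8, 69.0 and 62.9, and S-PRT libraries 69.3, 63.8, 67.3 and 66.4. Its log2 change was -0.17 (SE 0.13, adjusted p = 0.361) after F-PRT and -0.29 (SE 0.13, adjusted p = 0.119) after S-PRT, and the latter passed without untreated replicate 1 (-0.38, adjusted p = 0.0126) and with voom quality weights (-0.35, adjusted p = 0.0273). In the authors' TPM Untreated was the lowest group and not the highest, at 11.5 ± 2.27 against 14.8 ± 1.03 after F-PRT and 13.3 ± 0.75 after S-PRT (SD, n = 4). The TPM change after F-PRT was 0.38 (limma adjusted p = 0.0459), so no direction is given for Kit. Among 5 blood stem and progenitor genes, which share Kit's other cell source, 1 rose, 2 fell and 2 did not pass in each beam, and the part of those cells in the Kit level was not tested.

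Fcer1a, the IgE-binding chain of the high-affinity receptor, was low in bone, with 4 to 44 counts. Its levels were 0.434, 1.60, 2.93 and 1.47 CPM untreated, 1.53, 1.06, 0.365 and 0.622 after F-PRT, and 0.457, 0.276, 1.03 and 0.569 after S-PRT. Untreated replicate 1 lay among the irradiated libraries, and F-PRT replicate 1 lay above untreated replicate 4. The log2 change was -0.88 (SE 0.52, adjusted p = 0.22) after F-PRT and -1.49 (SE 0.55, adjusted p = 0.0586) after S-PRT. The S-PRT value passed without untreated replicate 1 (adjusted p = 0.0169) and without S-PRT replicate 3 (adjusted p = 0.0377). With voom quality weights both beams passed (adjusted p = 0.0412 and 0.0226), and in TPM neither did (-0.03, adjusted p = 0.961, and -0.62, adjusted p = 0.333).

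Hdc, the only enzyme that makes histamine, fell in bone after both beams. Untreated libraries held 20.2, 52.2, 74.4 and 85.7 CPM. F-PRT libraries held 17.9, 14.8, 16.9 and 19.6 CPM, and S-PRT libraries 19.9, 9.33, 11.8 and 15.7. All irradiated libraries lay under all untreated ones, but untreated replicate 1 was close to them. After F-PRT the level was 0.296 of untreated (log2 -1.76, SE 0.34, adjusted p = 0.00172) and after S-PRT 0.244 (log2 -2.04, SE 0.35, adjusted p = 0.000797). In the authors' TPM untreated replicate 1, at 4.35 TPM, lay below all 4 F-PRT libraries (5.70 to 8.87) and 3 of the 4 S-PRT libraries, and the log2 change was -0.84 after F-PRT (limma adjusted p = 0.103) and -1.18 after S-PRT (adjusted p = 0.0319).

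The calls of Cma1, Tpsb2 and Hdc in bone held in both beams under every alternative fit and in all 12 fits that left out 1 library, except that Hdc after F-PRT lost its call on the TPM scale. For S-PRT the share of all genes called was 13.3% higher and 15.2% lower, and the member counts were again 2 rose, 1 fell and 4 did not pass. The median log2 change over the 7 members tested was 0.22 after F-PRT and 0.12 after S-PRT, against -0.01 over all genes in both, and the members went in opposite directions around it. The bone median also fell below 0 without the libraries that stood apart (-0.11 and -0.08), and rose to 1.03 and 0.77 on the TPM scale, so no direction is given for the list. Both comparisons use the same 4 untreated libraries.

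**Figure D2:**
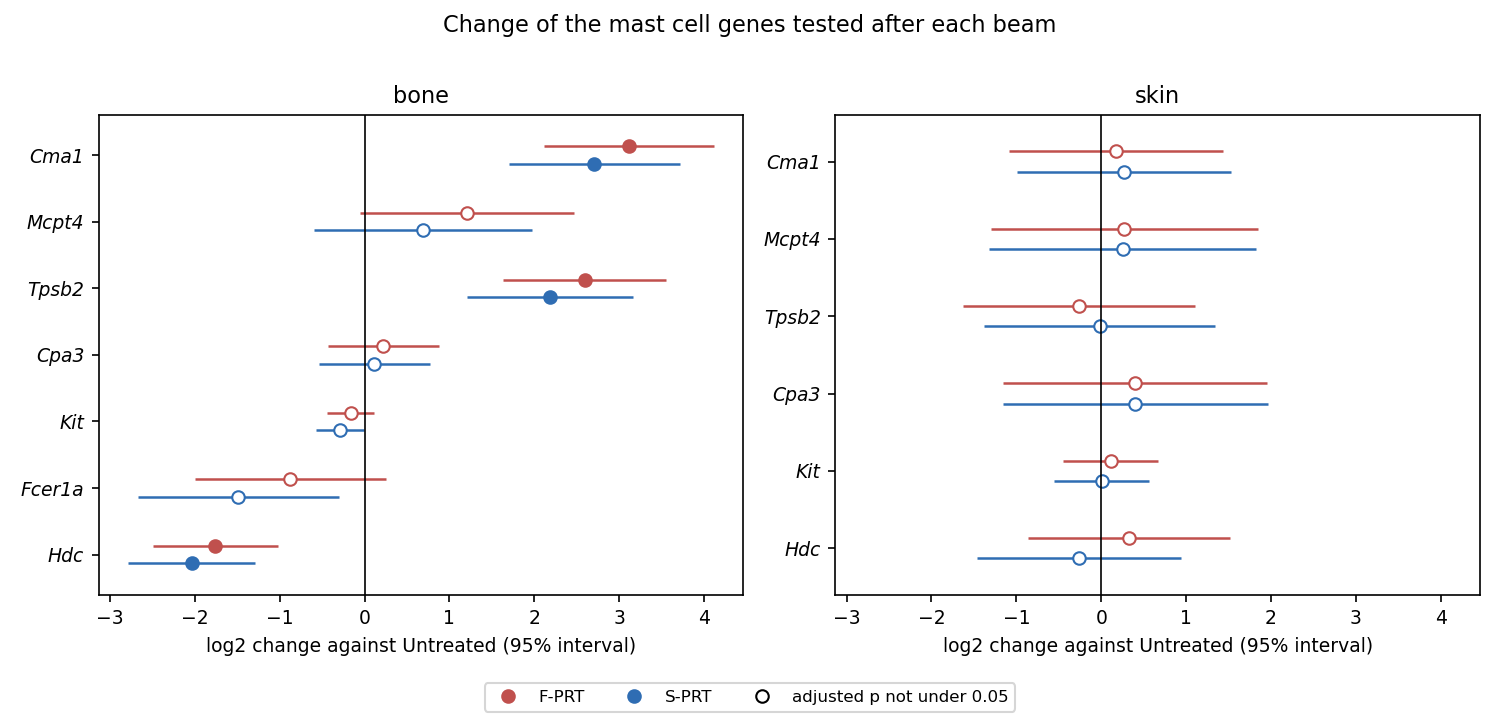
Log2 change against Untreated of each mast cell gene tested, with its 95% interval, in bone (left, 7 genes) and skin (right, 6 genes) after F-PRT and S-PRT; filled points passed at an adjusted p under 0.05. In bone Cma1 and Tpsb2 stood above 0 and, with TMM scaling, Hdc below it in both beams, and each skin interval spanned 0.

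Markers of other marrow cells moved in the same bone libraries. All 3 basophil genes, Mcpt8, Prss34 and the receptor gene Cd200r3, fell after both beams. Prss34 went from 15.4, 36.6, 37.4 and 41.6 CPM untreated to 7.29, 6.49, 5.78 and 8.03 after F-PRT and 7.25, 4.35, 5.79 and 3.67 after S-PRT (log2 -2.25, SE 0.28, adjusted p = 5.05e-05, and log2 -2.64, SE 0.28, adjusted p = 2.23e-05). Mcpt8 fell by 1.39 (adjusted p = 0.011) and 1.84 (adjusted p = 0.00274) on the log2 scale, and Cd200r3 by 0.898 (adjusted p = 0.0235) and 0.996 (adjusted p = 0.0164), the last gene losing its call in 4 and 3 of the 12 fits without 1 library. Cd200r3 also marks mast cells. Of the same genes in TPM only Prss34 was called (log2 -1.40, adjusted p = 0.00449, and -1.90, adjusted p = 0.00089). The marker counts of other cells below were made with TMM scaling alone.

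The summed basophil level ran from 23.5 to 63.7 CPM untreated, 13.7 to 16.0 after F-PRT and 7.60 to 13.7 after S-PRT. All 5 mature neutrophil and all 4 granulocyte precursor markers fell after both beams. Neutrophil markers summed to 779 to 5566 CPM untreated, 139 to 182 after F-PRT and 89.5 to 315 after S-PRT. Granulocyte precursor markers summed to 458 to 2122, 351 to 438 and 214 to 583 CPM. Bone Untreated replicate 1 was lowest of the untreated libraries in all 3 sums as it was in Hdc and Fcer1a. Their part in the lower Hdc and Fcer1a was not tested.

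All 5 macrophage markers rose in bone after both beams, from a sum of 287 to 567 CPM to 1027 to 1208 and 669 to 1137. Endothelial markers rose in 3 of 5, and fibroblast markers in 4 of 6 after F-PRT and 3 of 6 after S-PRT. Adipocyte markers rose in 4 of 5 after both beams, from a sum of 236 to 362 CPM to 551 to 773 and 498 to 705. Osteoblast markers rose in 1 of 5 after F-PRT and 2 of 5 after S-PRT, and skeletal muscle markers in 0 of 5. Basal keratinocyte markers, which belong to skin, rose in 4 of 5 after F-PRT and 1 of 5 after S-PRT. They summed to 5.03 to 11.4 CPM in untreated bone, 9.88 to 70.7 after F-PRT and 7.66 to 23.0 after S-PRT, against 7042 to 28910 in skin. The highest sum was in F-PRT replicate 2. The part of these cells in the higher Cma1 and Tpsb2 was not tested.

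The balance of the 2 chymases differed between skin and irradiated bone. In TPM, Cma1 exceeded Mcpt4 in all 8 irradiated bone libraries, with ratios from 2.15 to 4.03 after F-PRT and from 1.81 to 4.00 after S-PRT. In the 11 skin libraries without S-PRT replicate 4, Mcpt4 exceeded Cma1, with ratios of Cma1 to Mcpt4 from 0.452 to 0.726. The ranges did not overlap. Skin S-PRT replicate 4 had a ratio of 1.68, from 18 counts of Cma1 and 11 of Mcpt4. Untreated bone gave 0.386, 0.727, 5.20 and 0.438, from 3 to 10 counts of Cma1 and 2 to 19 of Mcpt4, too few to place. Mcpt4 counts were also low in irradiated bone, at 20 to 46 after F-PRT and 11 to 31 after S-PRT, so its ratios are imprecise as well. Untreated replicate 1, with the ratio of 0.386, had 19 counts of Mcpt4, inside the S-PRT range. The ratio of Tpsb2 to Mcpt4 was 0.840 to 2.26 in irradiated bone and 0.161 to 0.344 in those 11 skin libraries. Skin S-PRT replicate 4 had 0.842, inside the range of irradiated bone, and untreated bone ran from 0.267 to 3.60.

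**Figure D3:**
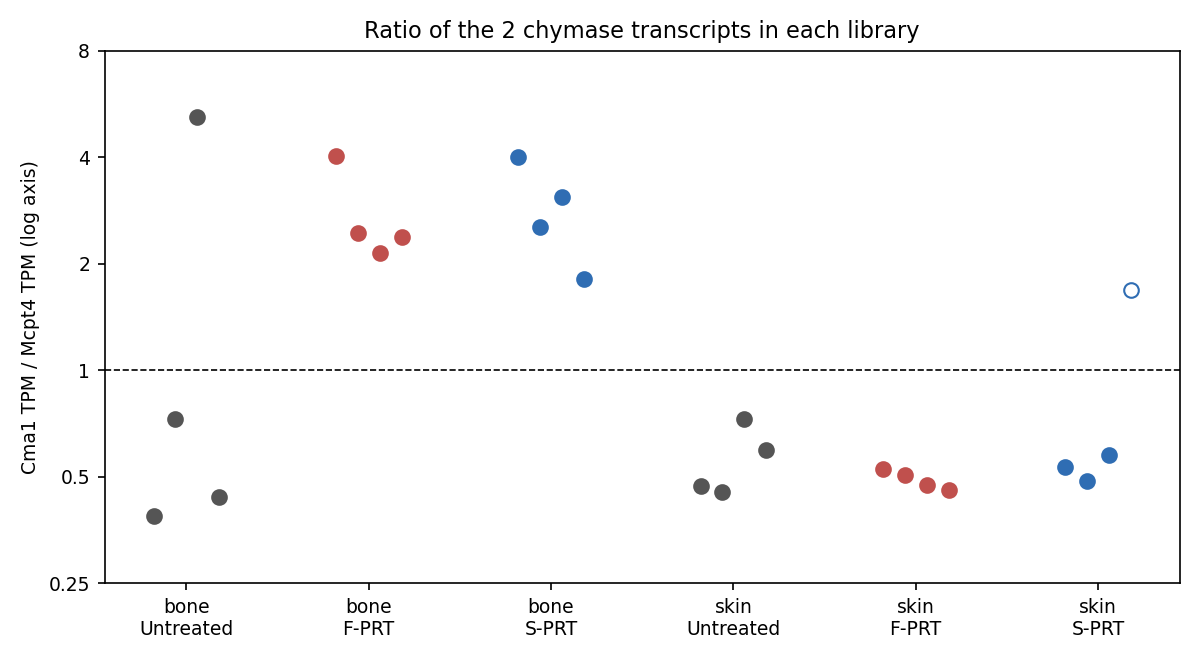
Ratio of Cma1 TPM to Mcpt4 TPM in each of the 24 libraries on a log axis, by tissue and treatment, with the dashed line at equal levels and skin S-PRT replicate 4 as an open circle. Irradiated bone lay between 1.81 and 4.03, and skin without that replicate between 0.452 and 0.726.

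Transcript of the stem cell factor gene rose in bone after both beams. Kitl, the ligand of Kit, went from 66.0, 94.1, 83.8 and 85.5 CPM untreated to 153, 186, 176 and 169 after F-PRT and 149, 155, 164 and 179 after S-PRT. All 8 irradiated libraries were higher. The change was 2.08-fold (log2 1.05, SE 0.11, adjusted p = 1.67e-05) and 1.96-fold (log2 0.97, SE 0.11, adjusted p = 3.89e-05). Il33, an alarmin that acts on mast cells, did not pass (adjusted p = 0.054 after F-PRT, with a log2 change of 1.13, and 0.389 after S-PRT, with 0.53). The other genes of this list of 6, Il3, Il4, Il9 and Tslp, were too low to test in bone.

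Of 4 receptor genes tested in bone, the beta chain of the IgE receptor, Ms4a2, fell after both beams. It had 4.45, 9.91, 8.80 and 9.38 CPM untreated, 4.12, 3.72, 3.35 and 3.11 after F-PRT and 2.97, 2.42, 4.52 and 2.66 after S-PRT. The log2 change was -1.195 (SE 0.25, adjusted p = 0.00288) and -1.38 (SE 0.26, adjusted p = 0.00142). In TPM it was -0.47 (adjusted p = 0.181) and -0.65 (adjusted p = 0.0771), and not called. Csf2rb, the shared receptor chain for IL-3 and related cytokines, fell by 0.56 on the log2 scale after S-PRT (adjusted p = 0.0453), a call lost in 10 of the 12 fits without 1 library and near 0 on the TPM scale (0.03). Fcer1g, the signalling chain, did not pass (log2 0.14 with adjusted p = 0.71, and -0.09 with adjusted p = 0.826). Il1rl1, the receptor for IL-33, had -0.03 (adjusted p = 0.9) and -0.10 (adjusted p = 0.68). In TPM both stood higher after F-PRT (1.01, adjusted p = 0.0252, and 0.65, adjusted p = 0.00499), so these calls depend on the scale.

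Mrgprb1 and Mrgprb2, receptors by which mast cells answer peptides and drugs, were too low to test in bone. Mrgprb2 had 0, 0, 1 and 2 counts untreated, 10, 3, 8 and 2 after F-PRT and 1, 1, 4 and 10 after S-PRT. The untreated group is at or under 3 counts in each library, and the groups overlapped at 2 counts and 1 count. Mrgprb1 had 0 to 9 counts, with no separation of the groups.

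Of 4 other granule genes tested in bone, 1 rose and 2 fell after each beam. Gzmb, the granzyme shared by cytotoxic lymphocytes and some mast cells, rose 4.24-fold after F-PRT (log2 2.08, SE 0.48, adjusted p = 0.00466), from 0.325 to 1.45 CPM untreated to 1.59 to 4.44. After S-PRT its rise was 2.68-fold (adjusted p = 0.0424), and that call was lost in 8 of the 12 fits without 1 library. Slc18a2, the vesicular transporter that loads histamine and other amines, fell to 0.50 of untreated (SE 0.17 on the log2 scale, adjusted p = 0.00067) and 0.51 (SE 0.17, adjusted p = 0.000997). Srgn, the proteoglycan core that holds the granule proteases and is made by most blood cells, fell by 0.70 (adjusted p = 0.0066) and 0.83 (adjusted p = 0.00259) on the log2 scale. On the TPM scale Gzmb was called higher after both beams, and neither Slc18a2 (-0.25 and -0.33) nor Srgn (0.09 and -0.15) was called. Mcpt1, Mcpt2, Mcpt9, Cma2, Tpsg1 and Tph1 were not tested in bone.

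The genes of lipid mediators split. Hpgds, which makes prostaglandin D2, rose by log2 1.03 (SE 0.17, adjusted p = 0.000592) after F-PRT and 0.72 (SE 0.17, adjusted p = 0.00711) after S-PRT in bone. Ltc4s, which makes leukotriene C4, rose by log2 1.58 (SE 0.21, adjusted p = 9.71e-05) and 1.46 (SE 0.21, adjusted p = 0.000216). Alox5, the lipoxygenase upstream of it, fell by 2.23 (adjusted p = 2.02e-05) and 2.22 (adjusted p = 2.56e-05), Alox5ap by 1.33 and 1.45, and the cyclooxygenase Ptgs1 by 1.26 and 1.34 on the log2 scale. These enzymes are also made by macrophages, neutrophils and platelets. The histamine receptor Hrh2 fell by 1.23 (adjusted p = 1.85e-05) and 1.04 (adjusted p = 7.8e-05), while Hrh1 and the histamine-degrading Hnmt did not pass and Hrh4 and Aoc1 were not tested. On the TPM scale Hpgds, Ltc4s, Alox5 and Ptgs1 kept direction and call in both beams, Alox5ap lost its call in both (adjusted p = 0.235 and 0.114), and Hrh2 was called after F-PRT only (adjusted p = 0.0491 and 0.133, with no test of a difference).

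Among transcription factors, Mitf, which drives Kit and protease genes in mast cells and pigment genes in melanocytes, rose from 13.3 to 21.04 CPM untreated to 29.3 to 32.2 after F-PRT (log2 0.92, SE 0.13, adjusted p = 0.00012) and 25.9 to 32.6 after S-PRT (log2 0.85, SE 0.13, adjusted p = 0.000281). Gata2, needed for mast cell and stem cell identity, did not pass (log2 -0.21 with adjusted p = 0.257, and -0.22 with adjusted p = 0.263). Tal1 fell by 0.61 (adjusted p = 0.0126) and 0.48 (adjusted p = 0.0453), the second lost in 9 of the 12 fits without 1 library, and Gata1, Stat5a and Stat5b did not pass. Of 6 genes of signalling below the IgE receptor, Syk, Lat and Btk fell after both beams, and Plcg1 rose by log2 0.34 after S-PRT (adjusted p = 0.0321). Mitf and, after S-PRT, Plcg1 were called higher on the TPM scale too. The falls of Syk, Lat, Btk and Tal1 were not called there: their log2 changes were 0.06, -0.05, -0.03 and 0.15 after F-PRT and -0.07, -0.07, -0.20 and 0.18 after S-PRT.

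**Figure D4:**
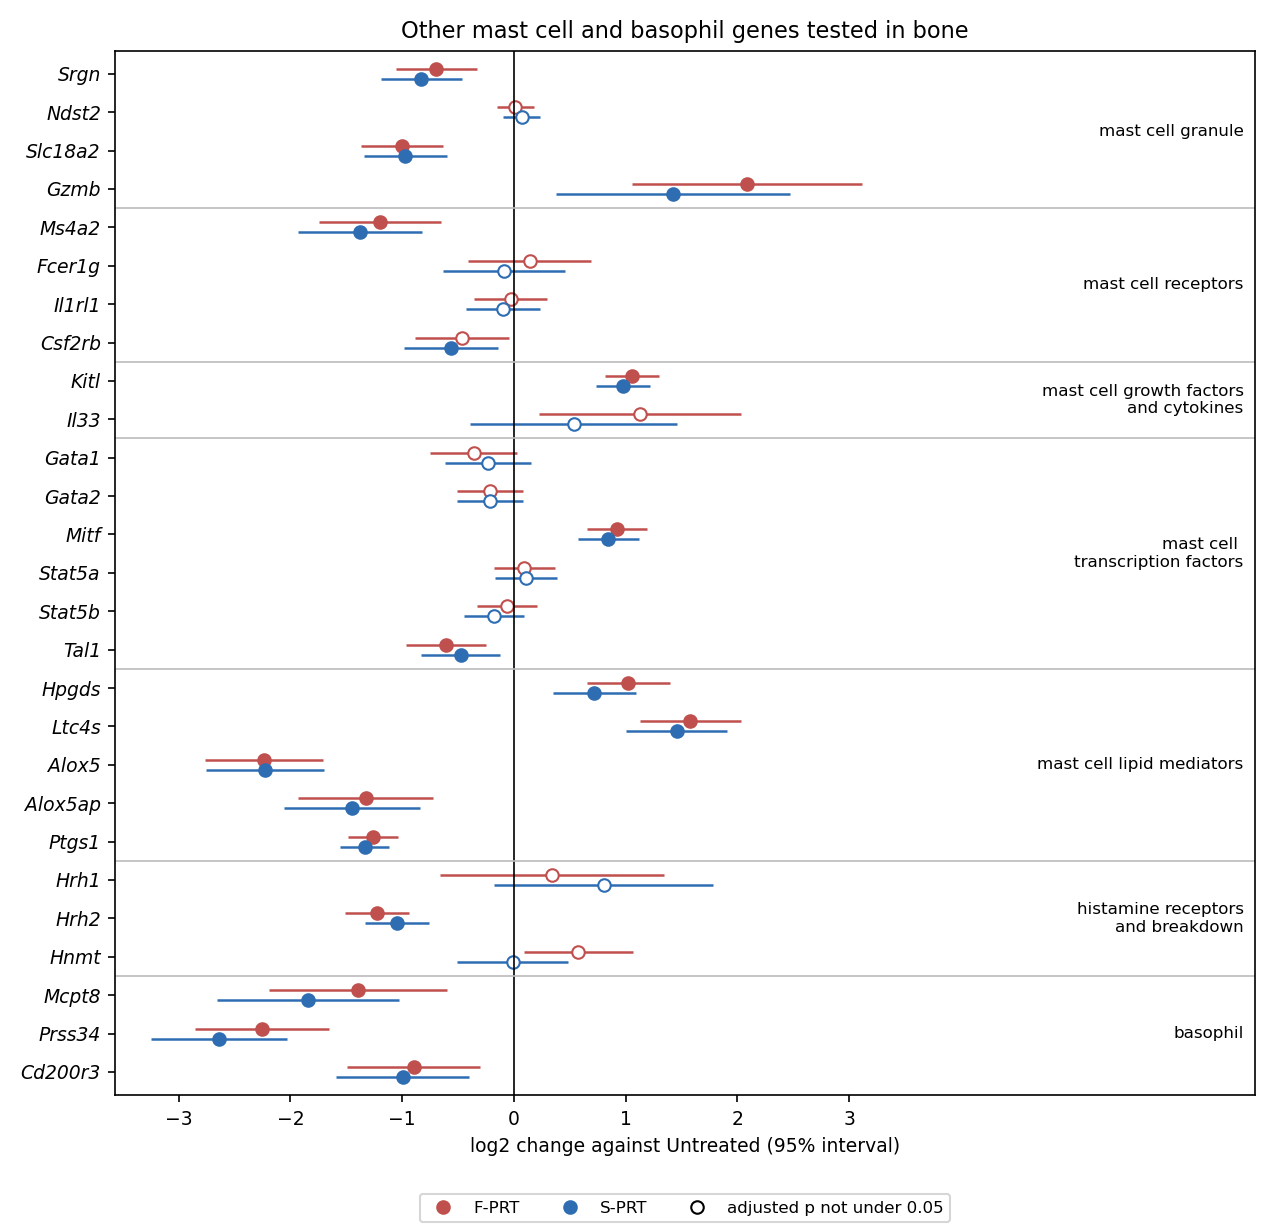
Log2 change against Untreated in bone, with its 95% interval, of the other mast cell genes tested and of 3 basophil genes, after F-PRT and S-PRT; filled points passed at an adjusted p under 0.05, and genes of signalling are not drawn. Gzmb, Kitl, Mitf, Hpgds and Ltc4s stood above 0, and, with TMM scaling, Ms4a2, Slc18a2, Srgn, Hrh2, Tal1, Alox5, Alox5ap, Ptgs1 and the basophil genes below it in both beams.

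Bone after F-PRT against bone after S-PRT asked whether the dose rate mattered. Of the 7 members tested, 0 passed with edgeR and 0 with DESeq2 or limma voom, where edgeR called 0.00531% of all genes. An unadjusted p under 0.05 was found for 0 of the 7, against 3.36% of all genes. The 95% interval of the log2 difference, F-PRT minus S-PRT, was -0.39 to 1.202 for Cma1 around 0.41, -0.37 to 1.19 for Tpsb2 around 0.41, and -0.47 to 1.02 for Hdc around 0.28. For Mcpt4 it was -0.63 to 1.67 around 0.52, and for Cpa3 -0.54 to 0.75 around 0.11. For Kit it was -0.16 to 0.41 around 0.12, and for Fcer1a -0.61 to 1.83 around 0.61. All 7 estimates were above 0, with a median of 0.41 against 0.01 over all genes, and each interval spanned 0. The members share their libraries, so this is a description only. The intervals leave room for a 2.30-fold difference in Cma1 and a 3.55-fold one in Fcer1a, so equality of the beams is not shown.

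Skin after irradiation showed no call among the mast cell genes. In F-PRT against Untreated, 0 of 6 members tested passed with edgeR, where 2.39% of 19038 genes were called, and 0 passed with DESeq2 or limma voom. An unadjusted p under 0.05 was found for 0 of 6, against 14.9% of all genes. In S-PRT against Untreated these counts were also 0 of 6, where 4.34% of genes were called and 16.8% had an unadjusted p under 0.05. The count of members called was still 0 without S-PRT replicate 4. Between the beams, 0 of 6 passed by any of these tools and 0 had an unadjusted p under 0.05, with 0% of genes called by edgeR, 2.74% at an unadjusted p under 0.05, and 2 genes called by DESeq2. Without S-PRT replicate 4 the log2 difference between the beams went from -0.09 to -0.49 for Cma1, from 0.02 to -0.40 for Mcpt4, from -0.24 to -0.64 for Tpsb2, from 0.00 to -0.41 for Cpa3, from 0.11 to -0.14 for Kit and from 0.59 to 0.22 for Hdc, each with an adjusted p of 0.9995.

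Cma1 in skin had 14.1, 16.8, 8.41 and 15.5 CPM untreated, 13.8, 16.4, 16.2 and 15.7 after F-PRT, and 18.6, 27.7, 18.5 and 1.05 after S-PRT. The F-PRT libraries lay within the untreated range, and 3 S-PRT libraries lay above it with replicate 4 far below. The log2 change was 0.18 after F-PRT (95% interval -1.08 to 1.44) and 0.27 after S-PRT (-0.99 to 1.52). Without S-PRT replicate 4 the S-PRT value was 0.67 (adjusted p = 0.069).

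Mcpt4 in skin had 31.1, 38.7, 12.04 and 27.1 CPM untreated, 27.2, 33.5, 35.5 and 35.4 after F-PRT, and 36.3, 59.3, 33.3 and 0.644 after S-PRT. Its log2 change was 0.27 (95% interval -1.30 to 1.85) and 0.25 (-1.32 to 1.83), and 0.67 after S-PRT without replicate 4 (adjusted p = 0.191). Tpsb2 had 8.85, 9.38, 2.60 and 9.18 CPM untreated, 5.11, 6.27, 5.68 and 7.96 after F-PRT, and 7.23, 14.2, 7.62 and 0.527 after S-PRT. Apart from replicate 3, the untreated libraries lay above all F-PRT ones, and the log2 change was -0.26 (95% interval -1.62 to 1.10). After S-PRT it was -0.02, and 0.37 without replicate 4 (adjusted p = 0.573). Tpsab1 was far lower than Tpsb2 in skin, with 0 to 17 counts a library, and was not tested.

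Cpa3 in skin had 11.4, 11.2, 2.06 and 9.49 CPM untreated, 9.74, 12.5, 11.4 and 11.4 after F-PRT, and 12.6, 20.6, 11.6 and 0.351 after S-PRT. Its log2 change was 0.40 in both beams, and 0.81 after S-PRT without replicate 4 (adjusted p = 0.237). Kit had 22.7, 23.4, 15.0 and 21.5 CPM untreated, 21.9, 22.5, 21.9 and 23.1 after F-PRT, and 22.7, 29.4, 21 and 9.78 after S-PRT. For Kit the log2 change was 0.11 (95% interval -0.45 to 0.67) and 0.01 (-0.55 to 0.56), and 0.25 after S-PRT without replicate 4 (adjusted p = 0.355). Melanocytes also carry Kit. The 6 melanocyte markers summed to 24.4 to 42.1 CPM untreated, 56.4 to 79.4 after F-PRT and 71.5 to 80.5 after S-PRT without replicate 4, where they summed to 16.9. None of the 6 passed with edgeR. In each beam 4 of them had an unadjusted p under 0.05, against 14.9% of all genes after F-PRT and 16.8% after S-PRT. The part of melanocytes in the Kit level was not tested.

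Hdc in skin had 2.55, 5.98, 1.81 and 3.101 CPM untreated, 3.83, 5.18, 3.52 and 4.41 after F-PRT, and 3.04, 5.18, 2.62 and 0.351 after S-PRT. The log2 change was 0.33 (95% interval -0.86 to 1.52) and -0.26 (-1.46 to 0.94), and 0.11 after S-PRT without replicate 4 (adjusted p = 0.882). Fcer1a had 0 to 19 counts in the skin libraries and was not tested. The median log2 change over the 6 members tested in skin was 0.23 after F-PRT, against -0.02 over all genes. After S-PRT it was 0.13, and 0.52 without replicate 4, against 0.00 over all genes with every library. Leaving out 1 library at a time, the median ran from 0.01 to 0.39 after F-PRT and from -0.21 to 0.52 after S-PRT.

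**Figure D5:**
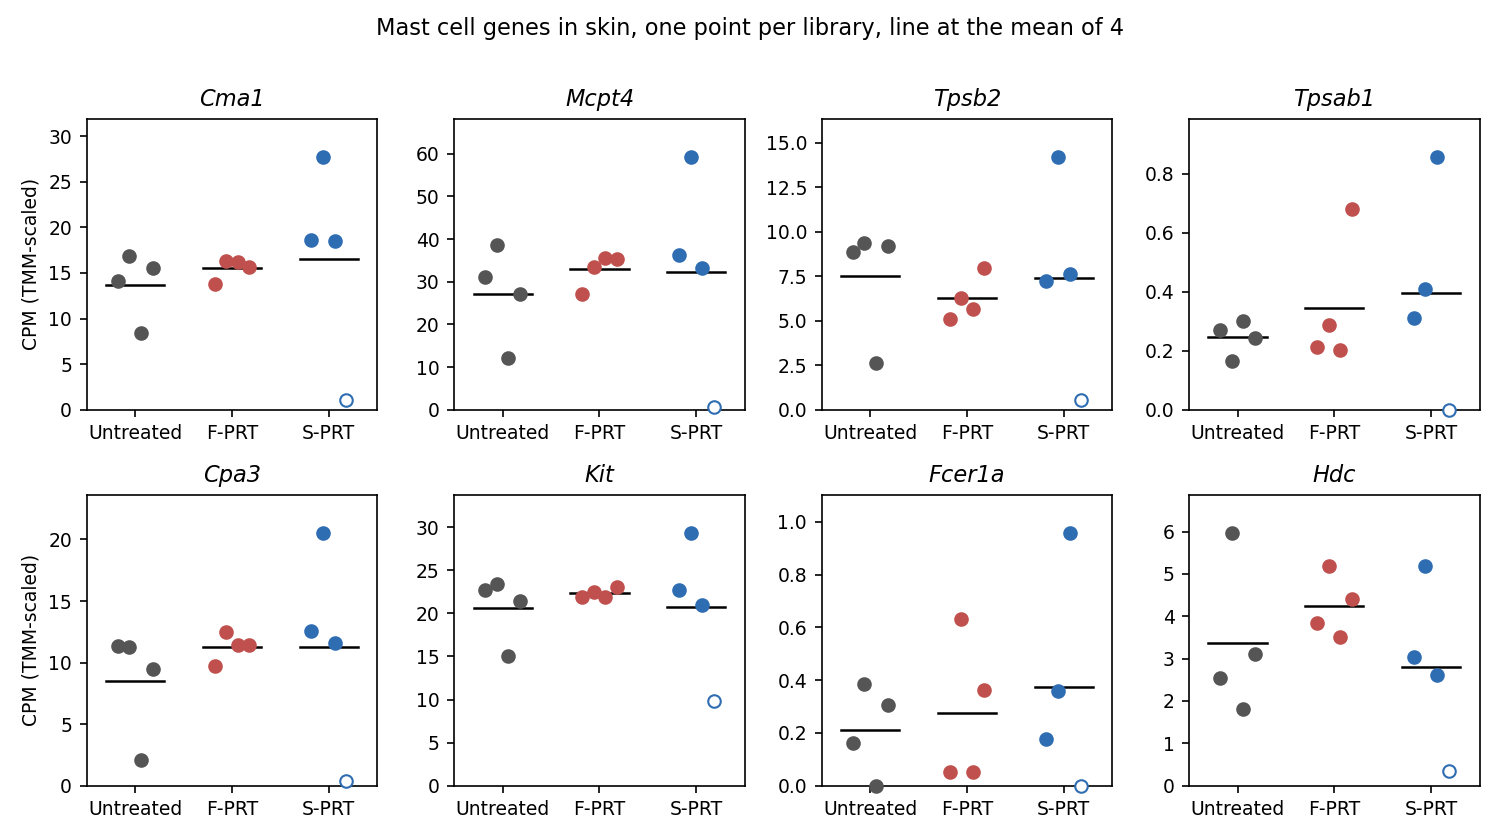
Level of each mast cell gene in skin, in TMM-scaled CPM on linear axes from 0, by treatment; a point is a library, a line the mean of 4, and the open circle S-PRT replicate 4. That replicate was the lowest library for 6 genes, and untreated replicate 3 the next lowest: Cma1, Mcpt4, Tpsb2, Cpa3, Kit and Hdc.

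Across the 12 skin libraries the 6 members tested rose and fell together. Log2 CPM of Cma1 and Mcpt4 had a Pearson correlation of 0.995, and 0.955 without S-PRT replicate 4. Without that library the pairs of Hdc with the others had correlations of 0.575 to 0.741, and the other 10 pairs 0.862 to 0.967. With the standardised mean of the members, the 8 genes of highest correlation outside the list were Inpp5d (r = 0.993), a lipid phosphatase of blood cells, Napsa, Dse, Cdk14, Csf2ra, Epb41l2, Cass4 and Tmeff2 (r = 0.979 for the last). Without S-PRT replicate 4, Inpp5d (0.964), Dse (0.956) and Cass4 (0.924) were again among the 8, with Enpep, Gfra2, P4ha2, Meox1 and Arnt2. In bone the members did not move as one: r with their mean ran from 0.108 for Mcpt4 to 0.919 for Cpa3, and Hdc had a correlation of -0.799 with Cma1. The 8 most alike genes there were Snw1 (r = 0.922), Pex2, Clec7a, Prpf4, Vta1, P2ry13, Nceh1 and Timd4. These values describe libraries that share treatment and cell makeup.

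Outside the members, 2 genes of the other mast cell lists passed in skin, and both did so after each beam. They were Kitl, 1 of 3 growth factor and cytokine genes tested, and Hpgds, 1 of 5 genes of lipid mediators. Of the granule, receptor, signalling and transcription factor genes, with 5, 6, 6 and 5 tested, 0 passed. Over all genes, 2.39% were called after F-PRT and 4.34% after S-PRT. Kitl rose from 32.8, 38.7, 44.0 and 31.4 CPM to 70.9, 58.8, 78.4 and 60.8 after F-PRT (log2 0.87, SE 0.14, adjusted p = 0.00431) and 74.0, 74.0, 60.4 and 68.9 after S-PRT (log2 0.92, SE 0.14, adjusted p = 0.00213). All irradiated skin libraries, replicate 4 of S-PRT included, were above the untreated ones. Hpgds fell by 1.122 (SE 0.16, adjusted p = 0.00222) and 1.22 (SE 0.16, adjusted p = 0.000949) on the log2 scale, from 65.2 to 104 CPM untreated to 32.9 to 45.6 and 32.7 to 38.7, the opposite of its direction in bone. Without S-PRT replicate 4 the S-PRT values were 0.93 for Kitl (adjusted p = 0.00196) and -1.17 for Hpgds (adjusted p = 0.0014). By limma on TPM, Kitl was called after S-PRT (adjusted p = 0.0397) and not after F-PRT (0.0667), and Hpgds was not called (-0.90, adjusted p = 0.12, and -0.91, adjusted p = 0.0805). Mrgprb2 stood at 7.15 CPM in skin S-PRT replicate 4 against 9.29 to 10.8 in the other libraries of its group, while Mrgprb1 there was at 0.351 against 7.50 to 14.4 and Ms4a2 at 0 against 3.04 to 4.82.

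The skin and bone effects were compared directly with an interaction over all 24 libraries. After F-PRT 3 of 7 members differed, where 10.7% of 20754 genes did. The log2 change of skin minus that of bone was -2.97 for Cma1 (SE 0.87, edgeR adjusted p = 0.0312), -2.89 for Tpsb2 (SE 0.90, adjusted p = 0.0419) and 2.06 for Hdc (SE 0.66, adjusted p = 0.0464). These calls are close to the threshold: of 24 fits without 1 library, Cma1 lost its call in 7, Tpsb2 in 15 and Hdc in 20, and all 3 kept it without skin S-PRT replicate 4 (adjusted p = 0.000414, 0.00288 and 0.00886). On the TPM scale Cma1 alone was called (-3.06, adjusted p = 0.0463), beside Tpsb2 (-2.82, adjusted p = 0.0577) and Hdc (1.37, adjusted p = 0.231), and without the low-count filter Hdc was not called (adjusted p = 0.0547). With a replicate block none of the 3 was (adjusted p = 0.0723, 0.128 and 0.144). Over all genes, 968 differed upward and 1244 downward after F-PRT, and 304 and 2009 in TPM; after S-PRT the numbers were 1029 and 932, and 304 and 1036 in TPM. After S-PRT 0 of 7 passed, where 9.45% of genes were called, and DESeq2 called 1. An unadjusted p under 0.05 was found for 3 of 7, against 22.5% of all genes. Those 3 were Cma1 (-2.46, adjusted p = 0.0849), Tpsb2 (-2.23, adjusted p = 0.136) and Hdc (1.76, adjusted p = 0.104). Without skin S-PRT replicate 4, Cma1 (-2.07, adjusted p = 0.012) and Hdc (2.13, adjusted p = 0.0106) passed and Tpsb2 did not (adjusted p = 0.0651). The difference between the beams was not called to differ between tissues for any member by edgeR or DESeq2, with 0 members at an unadjusted p under 0.05 and 0% of genes called by edgeR, 3.52% at an unadjusted p under 0.05 and 1 gene called by DESeq2.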

How the data were processed

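RNA from 24 libraries (12 of skin, 12 of bone) was analysed. Per the submitters' processing notes the tools were FastQC, cutadapt, STAR and RSEM with the build GRCm38; their versions and order, the annotation release and the library strand are not stated in those notes. The deposited expected counts, as the authors' RSEM files give them per the file headers, were rounded to whole numbers and tested. The authors' deposited TPM values served to compare genes with each other and as an added scale. GENCODE M21 names matched 55230 of 55471 identifiers (99.57%).

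Counts were fitted with edgeR 4.0.16 in R 4.3.3 (TMM, filterByExpr with its count minimum of 10, quasi-likelihood F test, Benjamini-Hochberg adjustment over all genes tested), on the 12 libraries of a tissue, or on all 24 for differences between tissues. The 3 treatments were compared in pairs within each tissue. CPM values are TMM-scaled within a tissue, and correlations use log2 CPM with a prior count of 2. Totals of 10.91 to 22.09 (1e6 counts) make 3 counts worth 0.134 to 0.325 TMM-scaled CPM, a floor for counting error only, since reads lacking molecular identifiers can be copies. Chi-square per degree of freedom between replicates ran from 9.54 upward, so no pair was a repeat of one library. P-values measure the spread between libraries, and nothing in the labels says whether skin and bone came from the same mice.

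All 8 members were named, with 11 further genes looked up in each comparison (Ms4a2, Fcer1g, Mrgprb1, Mrgprb2, Il1rl1, Gata2, Mitf, Kitl, Slc18a2, Mcpt8 and Prss34), genes of the other mast cell lists that passed, and the 8 genes most like the members' mean with a mean CPM of at least 1. Others named without a call, and the libraries singled out, were chosen after their values were seen. Members and lists were chosen with earlier results of these data known. Alternatives were DESeq2 1.42.0, voom with quality weights (limma 3.58.1), RLE scaling, no filter, a replicate block, the 8 libraries compared, leaving out each library, leaving out 5 libraries that stood apart and, added after seeing the data, limma on log2 of the deposited TPM plus 0.1. The edgeR and TPM fits of F-PRT against Untreated within a tissue were run on simulated counts, and the other fits were not. Protein sequences were not used here.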

Additional observations from a re-analysis of the deposited data

Results flagged for a closer look

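In skin Untreated, replicate 3 held 2.601 CPM of Tpsb2, far under the other 3 libraries (8.85 to 9.38 CPM). In bone F-PRT, replicate 3 held 2.799 CPM of Mcpt4, far above the other 3 (1.24 to 1.36 CPM). Of 42 sets of 4 libraries examined, these 2 held such a library, and chance alone gives about 1 in 20.

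The effect of F-PRT differed between skin and bone by an interaction test for Cma1 (log2 difference skin minus bone -2.9676), Tpsb2 (-2.8868) and Hdc (2.06), with adjusted p of 0.0312, 0.0419 and 0.0464. With skin and bone libraries of one number paired in a replicate block, none of the 3 was called (adjusted p = 0.0723, 0.128 and 0.144), and on the TPM scale only Cma1 was (adjusted p = 0.0463).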

How the results depend on the processing

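In bone, Cma1, Tpsb2 and Hdc kept their direction and call in both beams under 7 of the 8 alternative fits (the other, on deposited TPM, was chosen after seeing the data and lost the call of Hdc after F-PRT, adjusted p = 0.103) and in all 12 fits that left out 1 library. The count of members called, 3 in each beam, was 5 (F-PRT) and 6 (S-PRT) with voom quality weights and again 5 and 6 without the libraries that stood apart; it ran from 3 to 4 and from 3 to 6 when 1 library was left out, the 4 and the 6 being without bone Untreated replicate 1. The median log2 change of the members in bone turned from 0.22 to -0.11 (F-PRT) and from 0.12 to -0.08 (S-PRT) without the libraries that stood apart. In skin the count was 0 under every alternative in all 3 comparisons.

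The scale mattered most in bone. On the deposited TPM, the members called numbered 5 after F-PRT (Cma1, Tpsb2, Mcpt4, Cpa3 and Kit, all higher) and 4 after S-PRT (Cma1, Tpsb2 and Mcpt4 higher, Hdc lower), and calls over all genes 11990 and 11061, against 150 and 283 in skin and 0 between beams in bone. Log2 changes that turned positive after F-PRT included those of Kit (0.3767), Srgn (0.08906), Il1rl1 (0.6472), Syk (0.06136), Gata2 (0.6359), Stat5b (0.6452) and Tal1 (0.1465). After S-PRT such changes included those of Kit (0.2216), Il1rl1 (0.507), Csf2rb (0.02583) and Tal1 (0.1847).

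The difference between tissues was the least stable result. After F-PRT its count of 3 fell to 0 with a replicate block (Cma1 adjusted p = 0.0723), 2 without the filter and 1 on the TPM scale, and ran from 0 to 3 when 1 library was left out. After S-PRT its count of 0 was 1 with DESeq2, 3 without the libraries that stood apart, and 0 to 2 when 1 library was left out. Same-numbered libraries correlated above 0.1 in 3 of 12 pairs in bone, 7 of 12 in skin and 3 of 12 across tissues. Whether replicate numbers pair the libraries cannot be told from this, as pairs of unlike number were not set beside them. Besides the tissue difference after F-PRT, the block changed no count of members.

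Over all genes, calls in skin after F-PRT went from 455 to 940 with DESeq2, 2623 with voom, 1215 with the 8 libraries compared, 299 with the replicate block and 2704 without the libraries that stood apart (216 to 1477 leaving out 1 library, 1477 without skin S-PRT replicate 4). After S-PRT they went from 827 to 1487, 3102, 305, 595 and 4509 in the same order (452 to 2270 leaving out 1). Bone between beams went from 1 to 21 with DESeq2, 11 without the filter and 0 with the block or the 8 libraries. Skin between beams had 0, and 2 with DESeq2. The tissue differences went from 2212 to 1236 and from 1961 to 1090 with the block, and the latter to 3655 without the libraries that stood apart; the difference between beams went from 0 to 1 with DESeq2. The cause of these shifts was not tested. DESeq2 gave no adjusted p for Mcpt4, Tpsb2 and Fcer1a between the beams in bone. Low counts in untreated bone limit what can be said of Mcpt4 (2 to 19), Cma1 (3 to 10) and Tpsb2 (3 to 8), the size of their folds included. Tpsab1 was too low to test in both tissues.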
